A study of Homo sapiens with 9 samples.

Results

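A stretch of chromatin called as bound by a transcription factor can hold more than 1 local maximum of sequencing reads, and the peak caller then lists each maximum as a summit of the same interval. Described here are the intervals with 2 or more summits among the HIF-1α binding calls of hypoxic SK-N-BE(2) cells, a human neuroblastoma line. Members were chosen from the readout itself: intervals on chromosomes 1 to 22 and X whose chromosome, start and end appeared in 2 or more lines of a hypoxia list, without chromosome 2 from 16 to 17 Mb. There were 873 such intervals among 14710 in the 3 hypoxia lists (323 of 1392 in hypoxia 1, 245 of 5790 in hypoxia 2 and 305 of 7528 in hypoxia 3), and 14920 intervals in the whole series on the same chromosomes. Positions count from 1 and refer to the hg19 build.

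Oxygen controls the factor HIF-1 through its alpha subunit, HIF-1α. In oxygenated cells it is hydroxylated by prolyl hydroxylases and degraded; when oxygen is low it is stable, pairs with ARNT and binds short hypoxia response elements, which lie mostly in promoters and enhancers. A regulatory region can carry several such elements, and how closely spaced summits are resolved depends on the length of the sequenced DNA fragments and on how the reads are extended.

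Chromatin from cells kept for 48 hours at 1% oxygen (hypoxia, 3 libraries) or 21% oxygen (normoxia, 3 libraries) was immunoprecipitated for HIF-1α, and 3 input libraries came from 21% oxygen. All libraries come from this 1 line, grown in the same medium, and carry no other treatment; none of the labels describes them as separate cultures, so the p-values and SDs given here reflect how far the libraries differ, and that spread may be technical. Every HIF-1α library has its own peak list.

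Background depth was alike between libraries once scaled by the length of the shortest interval, and that length differed. The recovered genome-wide background was 0.318, 0.92 and 0.886 reads in hypoxia 1, 2 and 3 and 0.283 to 0.308 in the normoxia libraries. Background depth, these genome-wide reads over the length of the shortest interval, was 6.62, 5.94 and 5.31 reads per kb in hypoxia 1, 2 and 3 and 6.02 to 6.69 in the normoxia libraries. The shortest interval, which by the usual default of the peak caller equals the length to which reads were extended, measured 48 bp in hypoxia 1, 155 bp in hypoxia 2 and 167 bp in hypoxia 3, and 46 or 47 bp in the normoxia lists. The shortest interval was thus shorter in hypoxia 1 and the normoxia lists than in hypoxia 2 and hypoxia 3. The settings of the peak caller were not given, so the extension length is assumed. Whether a shorter one gave finer detail was not tested. The length of the shortest interval moves with several of the results below, and its part in them was not tested.

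Intervals with several summits were frequent in hypoxia 1 and rare in the other hypoxia lists. They made up 23.2% of the intervals of hypoxia 1 (exact 95% interval 21% to 25.5%), 4.23% of hypoxia 2 (3.73% to 4.78%) and 4.05% of hypoxia 3 (3.62% to 4.52%), a mean of 10.5% ± 11 (SD, n = 3). Hypoxia 2 and hypoxia 3 did not differ beyond counting error, and hypoxia 1 stood far above both; without hypoxia 1 the mean was 4.14%. Since the number of summits is the rule, these shares describe the members and were not tested. With only intervals of fold 6 or more the mean was 17.5%, and at a −log10 q of 5 or more it was 19.1%.

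Most members held a pair of summits. In hypoxia 1, 189 members had 2 summits, 88 had 3, 37 had 4, 7 had 5, and 1 each had 6 and 7. In hypoxia 2 the counts were 230 with 2, 12 with 3, 2 with 4 and 1 with 7, and in hypoxia 3 they were 284 with 2, 17 with 3 and 4 with 4. Intervals of 3 or more summits were thus 134 of 323 in hypoxia 1, 15 of 245 in hypoxia 2 and 21 of 305 in hypoxia 3.

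Distances between neighbouring summits fell on 2 scales. The median was 104 bp in hypoxia 1 (quartiles 84 and 136 bp, 515 distances), 251 bp in hypoxia 2 (199 and 327 bp, 266 distances) and 277 bp in hypoxia 3 (214 and 355 bp, 330 distances). Distances under 150 bp were 81.7% of those in hypoxia 1 but 7.89% in hypoxia 2 and 4.85% in hypoxia 3. Normoxia 1, 2 and 3, with shortest intervals of 46 or 47 bp, had medians of 96.5, 92 and 114 bp over 6, 12 and 47 distances. The order of the medians followed the shortest interval length in the hypoxia lists, and the normoxia lists lay beside hypoxia 1, not beside the other hypoxia libraries. In the normoxia lists the oxygen level and this length cannot be told apart, and hypoxia 1 is the only hypoxia library with a short length.

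**Figure D1:**
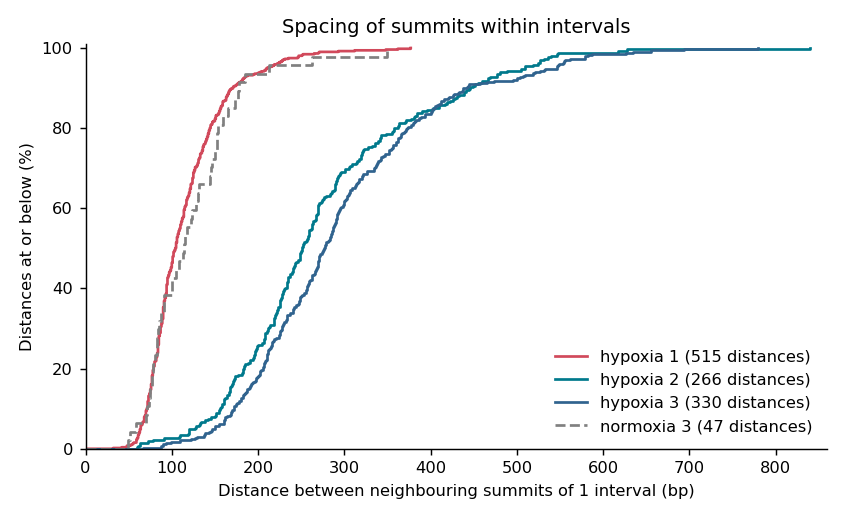
Cumulative share of the distances between neighbouring summits (y axis, %) against the distance (x axis, bp) in the 3 hypoxia lists and in normoxia 3, the normoxia list with the most members. Hypoxia 1 and normoxia 3 run together with medians of 104 and 114 bp, while hypoxia 2 and hypoxia 3 run together with medians of 251 and 277 bp.

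The extremes of spacing show what lay just inside the rule. The closest pair of hypoxia 1 was 32 bp apart, at 80980924 and 80980956 of chromosome 10, with 8 and 9 reads and folds over local background of 4.88 and 7.2. That of hypoxia 3 was 67 bp apart on chromosome 9 (97895501 and 97895568), with 11 and 14 reads. The closest pair of hypoxia 2, 60 bp apart, lay in the first kilobases of chromosome 5, in an interval of high background described further below. The widest pairs were 377 bp apart in hypoxia 1 (chromosome 19: 4968596 and 4968973), 840 bp in hypoxia 2 (chromosome 5: 172755708 and 172756548) and 779 bp in hypoxia 3 (chromosome 3: 122102174 and 122102953). In each of these widest pairs a strong summit stood beside a weak one, with folds of 23.5 and 5.43, 6.14 and 42.7, and 6.78 and 67.

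Members were wider than intervals with 1 summit of the same list. Median widths were 339 against 87 bp in hypoxia 1, 535 against 240 bp in hypoxia 2 and 616 against 252 bp in hypoxia 3, ratios of 3.9, 2.23 and 2.44 (mean 2.86 ± 0.907, SD, n = 3). Width and summit number come from the same pile of reads, so this is a description. The classes overlapped: the narrowest member measured 131, 212 and 176 bp in hypoxia 1, 2 and 3, and 26.2%, 62% and 84.7% of the intervals with 1 summit were at least that wide. The widest interval with 1 summit measured 563 bp in hypoxia 1 (chromosome 6: 43635705 to 43636267) and 1418 bp in hypoxia 3 (chromosome 11: 1999878 to 2001295). The latter had the highest fold of its list, 137. The same site was split in the other lists: hypoxia 2 had 2 summits there (1999864 to 2001191), also with its highest fold, 107, and hypoxia 1 had 5 (1999991 to 2000943) with a fold of 26.6. The interval with the highest fold of hypoxia 1, 46.5, was itself a member with 4 summits (chromosome 2: 86667618 to 86668548), and hypoxia 2 and hypoxia 3 had 1 summit there with folds of 77.6 and 50.1. Whether a strong site was split thus differed between lists at the same place.

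Members were also among the stronger sites of their lists. The fold of the best summit, that with the smallest p, had a median of 10.7 against 5.7 for single summits in hypoxia 1, 8.83 against 6.52 in hypoxia 2 and 9 against 6.01 in hypoxia 3. With the intervals of a list ranked by fold and cut into 4 classes of like size, from the lowest class to the highest, the share with several summits went from 1.42% over 2.91% and 19.8% to 68.7% in hypoxia 1. In hypoxia 2 it went from 1.42% over 3.45% and 4.75% to 7.52%, and in hypoxia 3 from 1.16% over 2.5% and 4.05% to 8.54%. Most strong sites of hypoxia 1 were thus listed with several summits, whereas most strong sites of hypoxia 2 and hypoxia 3 had 1. A median of 16, 19 and 20 reads lay behind the best summit of a member in hypoxia 1, 2 and 3, and of 12, 14 and 13 reads behind its other summits, against 8, 14 and 13 reads at single summits.

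Within a member the second summit was usually of similar height in hypoxia 1 and more often small in the other libraries. The second-highest fold was a median of 0.783 of the highest in hypoxia 1 (quartiles 0.669 and 0.909), 0.714 in hypoxia 2 (0.462 and 0.846) and 0.706 in hypoxia 3 (0.498 and 0.857). It was below 0.25 of the highest in 1 member of hypoxia 1, 27 of hypoxia 2 and 30 of hypoxia 3. Within members, a satellite far below its neighbour was thus rarely listed in hypoxia 1. Its members left less room for one. Summits other than the best had at least 5 reads there, beside a median of 16 reads at the best. Best folds of members reached 46.5 in hypoxia 1, 107 in hypoxia 2 and 112 in hypoxia 3. Members of 3 or more summits, whose second summit is the highest of several others, were also more frequent in hypoxia 1. The part of these limits in the difference was not tested. Summits in separate intervals are not compared here, and hypoxia 1 had 2 or more intervals at 28 members of hypoxia 2 and 36 of hypoxia 3.

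Whether the members of a list came back was asked with the other hypoxia lists, which had no part in choosing the members of that list. An interval of another hypoxia list overlapped all 323 members of hypoxia 1 (100%, exact 95% interval 98.9% to 100%), where 92.5% of all hypoxia 1 intervals were overlapped. In hypoxia 2 it was 226 of 245 members (92.2%, 88.2% to 95.3%) beside 70.9% of all intervals, and in hypoxia 3 it was 253 of 305 (83%, 78.3% to 87%) beside 54.7%. Intervals with 1 summit were overlapped in 90.2%, 70% and 53.5%. Members were ahead by 9.82, 22.2 and 29.4 percentage points in hypoxia 1, 2 and 3, in all 3 libraries, with a mean of 20.5 ± 9.92 (SD, n = 3; exact sign-flip permutation p = 0.25, two-sided, the smallest that 3 libraries allow). All 226 overlapped members of hypoxia 2 were overlapped by hypoxia 3, and 251 of the 253 of hypoxia 3 by hypoxia 2. The same overlaps thus enter from both sides, so the 3 differences are not independent.

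The lead of members over single summits did not hold within classes of width. With the members of a list cut into 4 width classes, and single summits set beside them in each, the mean difference was −1.69 percentage points (SD 2.68, n = 3; exact sign-flip permutation p = 0.5), from width classes with at least 20 members and 20 single summits. In the narrowest class, members and single summits were overlapped in 80.3% and 79.1% in hypoxia 2 and in 58.7% and 55.4% in hypoxia 3. This class ran from 212 to 442 bp in hypoxia 2 and from 176 to 468 bp in hypoxia 3, so widths within a class were not equal. In the next class members were behind, with 88.5% against 97.8% in hypoxia 2 (442 to 535 bp) and 80.5% against 95% in hypoxia 3 (468 to 616 bp). In the widest class 100% and 100% were overlapped in hypoxia 2 and 98.7% and 100% in hypoxia 3. Within each width class the single summits were the stronger in these 2 lists: in the second class their median fold was 14.5 against 7.62 in hypoxia 2 and 14.8 against 7.76 in hypoxia 3. In hypoxia 1 at least 98.1% of both classes were overlapped in every class, but its 2 widest classes held only 14 and 7 single summits.

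**Figure D2:**
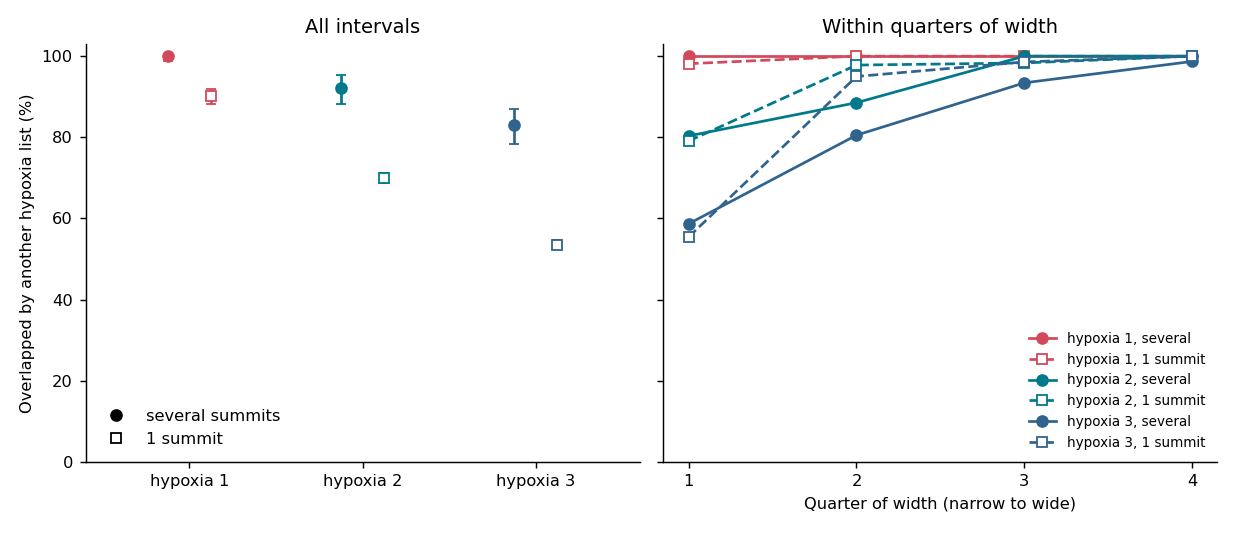
Left, share of intervals overlapped by at least 1 of the other 2 hypoxia lists (y axis, %) for intervals with several summits (filled circles) and with 1 summit (open squares), with exact 95% intervals that cover counting error only; right, the same shares in 4 classes of the members' width, from narrow to wide. Members lie above single summits in all 3 lists on the left, but on the right the classes meet at the narrow and wide ends and members lie below in the second class of hypoxia 2 and hypoxia 3.

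Recurrence of an interval is not recurrence of its summits. Every summit of a member had a summit of its own within 50 bp in the same other list in 1 of 323 members of hypoxia 1 (0.31%, exact 95% interval 0.00784% to 1.71%), 49 of 245 of hypoxia 2 (20%, 15.2% to 25.6%) and 63 of 305 of hypoxia 3 (20.7%, 16.3% to 25.6%). Over all intervals of these lists the share was 41.3%, 51.7% and 39.5%, and for single summits, which need only 1 match, it was 53.7%, 53.1% and 40.3%. Spacing left little room for a full match of hypoxia 1 members. Their median distance was 104 bp, and distances under 150 bp occurred only 21 and 16 times in hypoxia 2 and hypoxia 3. The low share of hypoxia 1 therefore says little about whether its summits are reproducible. The pairs that came back did so almost entirely between hypoxia 2 and hypoxia 3, in 45 of the 49 and 58 of the 63 members. Both other lists held every summit in 0, 2 and 5 members of hypoxia 1, 2 and 3; by 3 counts of the total, 0 of 323 allows a share of up to 0.929%, and the exact 95% upper limit is 1.14%. Over the 3 lists the mean was 13.7% ± 11.6 (SD, n = 3), and it was 5.92% with summits within 25 bp, 20.8% within 100 bp and 24.8% within 150 bp. With hypoxia 2 or hypoxia 3 left out it was 1.64% or 1.38%.

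The best summit of a member came back far more often than its companions. Within 50 bp of it, another hypoxia list had a summit in 67.5%, 64.5% and 60% of members of hypoxia 1, 2 and 3, against 28%, 34.2% and 31.5% of the other summits. The difference was 39.5, 30.3 and 28.5 percentage points, higher for the best summit in all 3 libraries, with a mean of 32.8 ± 5.93 (SD, n = 3; exact sign-flip permutation p = 0.25, the smallest possible). Single summits lay between, at 53.7%, 53.1% and 40.3%. The other list often held 1 interval with 1 summit: at 85.1% and 83.6% of hypoxia 1 members. Hypoxia 3 did so at 52.2% of hypoxia 2 members, and hypoxia 2 at 45.6% of hypoxia 3 members. At the median distances of all 3 lists, such a lone summit cannot lie within 50 bp of both summits of a pair. The best summit was also chosen by its p. The direction was thus partly set by the definitions, and how far was not tested. In hypoxia 1 the taller companions were matched more often than the lower ones (39.9%, exact 95% interval 33.9% to 46.2%, against 16%, 11.7% to 21%). In hypoxia 2 and hypoxia 3 the taller companions were matched in 32.3% and 29.1% and the lower in 36.1% and 33.9%, differences within counting error.

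The other lists showed in different ways what a member consisted of. At the members of hypoxia 1, hypoxia 2 held 1 interval with 1 summit in 275 of 323 (85.1%) and hypoxia 3 in 270 (83.6%); they held 1 interval with several summits in 44 and 52. The lone summit fell between the outer summits of the hypoxia 1 member in 227 of the 275 cases in hypoxia 2 and 224 of the 270 in hypoxia 3. It lay a median of 34.5 and 34.25 bp from their midpoint and 26 and 27 bp from the nearest of them. The short distances of hypoxia 1 were therefore mostly distances within what the other lists called a single summit. Distances under 150 bp occurred 421 times in hypoxia 1, 21 times in hypoxia 2 and 16 times in hypoxia 3.

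In the opposite direction, hypoxia 1 had a call at a minority of the members of hypoxia 2 and hypoxia 3, but at a larger share of them than of single summits. It had no call at 146 of 245 members of hypoxia 2 (59.6%) and 192 of 305 of hypoxia 3 (63%), against 82.1% and 86% of the single summits and 81.2% and 85% of all intervals of these lists. At the members it had 2 or more separate intervals at 28 and 36, 1 interval with several summits at 29 and 32, and 1 with 1 summit at 42 and 45. Between hypoxia 2 and hypoxia 3 the members of the first were single summits of the second in 128 of 245 and members in 81, and the members of hypoxia 3 were single summits of hypoxia 2 in 139 of 305 and members in 78. Where the partner had a lone summit, it lay a median of 41 and 35 bp from the best summit and 96.75 and 111.5 bp from the midpoint. It fell between the outer summits in 81 of the 128 and 89 of the 139 cases. The distance from the best summit was alike for members of hypoxia 1, 41 bp in hypoxia 2 and 39 bp in hypoxia 3. Distances from the midpoint are on the scale of the spacing, which was shorter in hypoxia 1.

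**Figure D3:**
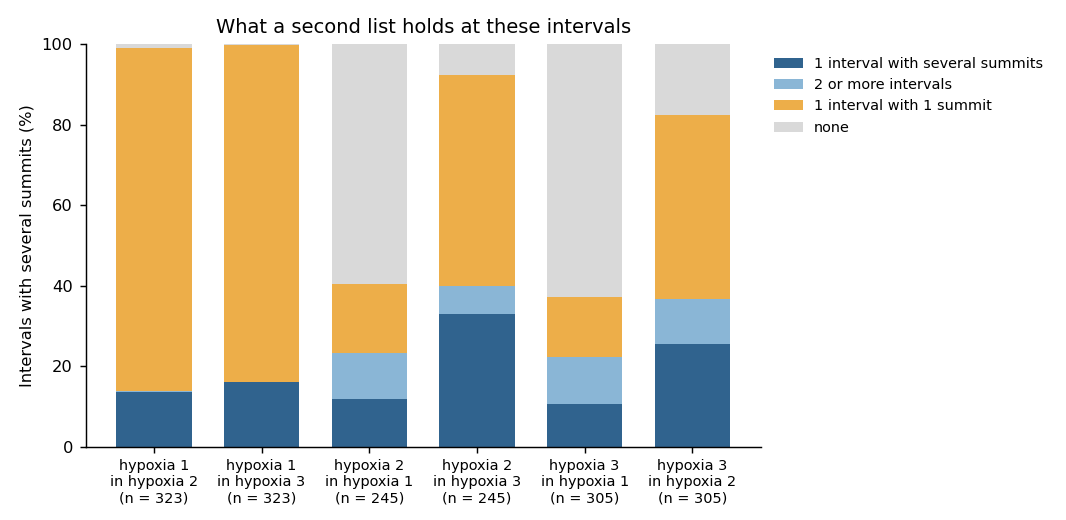
Share of intervals with several summits (y axis, %) by what a second hypoxia list held at the same place, for the 6 ordered pairs of lists. Members of hypoxia 1 appear as 1 interval with 1 summit in 85.1% and 83.6%, whereas members of hypoxia 2 and hypoxia 3 were split into 2 or more intervals in hypoxia 1 in 11.4% and 11.8%; they had no call there in 59.6% and 63%, against 82.1% and 86% of single summits, which are not drawn.

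Where hypoxia 2 and hypoxia 3 both listed 1 interval of exactly 2 summits, the distances were on the same scale but often differed. There were 66 such places, with median distances of 274 bp in hypoxia 2 and 310.5 bp in hypoxia 3 and a median absolute difference of 50 bp. The distances differed by 50 bp or less at 34 of the 66. At 37 of them both summits lay within 50 bp of those in the other list. Over the 66 places Pearson's r was 0.596 and Spearman's rho 0.635. Places are not replicates, both lists had a shortest interval of similar length, and no p is given. Between hypoxia 1 and hypoxia 2 there were 14 such places, with median distances of 96.5 and 371 bp, and the distances differed by 50 bp or less at 0 of the 14; both summits lay within 50 bp at 1.

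**Figure D4:**
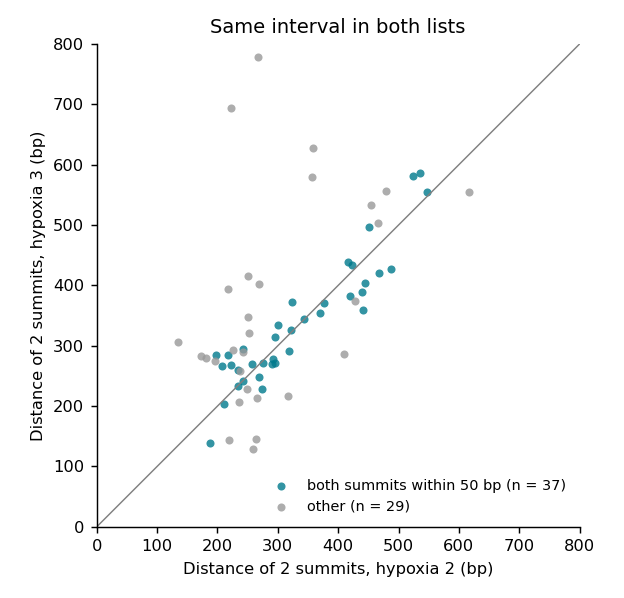
Distance between the 2 summits of an interval in hypoxia 2 (x axis, bp) and hypoxia 3 (y axis, bp) at 66 places where each list had 1 interval of exactly 2 summits. The 37 places with both summits within 50 bp lie along the line of equality, and some of the other 29 lie far from it.

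Pairs that came back were the taller and wider ones. Among members with exactly 2 summits, the lower summit had a median of 17 reads in the 44 pairs of hypoxia 2 found in hypoxia 3 and 12.5 reads in the other 186. In hypoxia 3 the medians were 19 reads in the 56 pairs found in hypoxia 2 and 12 in the other 228. The median distance was 310 against 241 bp in hypoxia 2 and 353.5 against 262.5 bp in hypoxia 3. Reads, fold, distance and width differed together between these classes, and the part of each was not tested. A second summit missing from the other list is not shown to be absent.

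Joined over the 3 hypoxia lists, intervals formed 9296 regions, and 715 of them had several summits in at least 1 list. Of the 715, 583 had several summits in exactly 1 list, 110 in 2 lists and 22 in all 3. Most were called in more than 1 list: 406 of the 715 were called in all 3 lists, 238 in 2 and 71 in 1. Of all 9296 regions, 1079 were called in all 3. Regions were not compared within classes of width, where the lead of members in overlap did not hold. The largest pattern, with 244 regions, was several summits in hypoxia 1 and 1 summit per interval in both other lists. Several summits in both hypoxia 2 and hypoxia 3 occurred at 83 regions.

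The 22 regions with several summits in every hypoxia list measured 640 to 1855 bp, with a median of 1165 bp. The 2 best summits were a median of 108 bp apart in hypoxia 1, 435 bp in hypoxia 2 and 500 bp in hypoxia 3, and at 15 of the 22 regions the 2 best summits of hypoxia 2 lay within 50 bp of those of hypoxia 3. At 16 regions hypoxia 1 had more summits than either other list. The 12 regions that rank highest by fold within the lists are given next; no hg19 sequence or gene annotation was used here, so they are named by position.

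First came chromosome 1: 8938459 to 8939744. Hypoxia 2 and hypoxia 3 each had a dominant summit (8939071 with 209 reads and fold 80.6; 8939086 with 241 reads and fold 96.9) and a satellite about 400 bp to its right (8939490 with 18 reads; 8939469 with 19 reads). The 2 lists therefore placed both summits within 50 bp of each other. Hypoxia 1 had 4 summits, at 8938713, 8938788, 8938894 and 8939072, with 9, 23, 33 and 44 reads. Its last summit coincided with the dominant one, the others lay to the left, and the satellite had no summit in hypoxia 1.

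The region on chromosome 12 from 6642376 to 6644213 had the most summits of these 12. Hypoxia 3 had 4 summits at 6642704, 6643161, 6643538 and 6643847, with 92, 42, 147 and 48 reads. Hypoxia 2 had 4 as well, at 6642701, 6643220, 6643535 and 6643802, with 80, 31, 138 and 53 reads. The outer left and the tallest summit matched within 3 bp, and the remaining 2 differed by 59 and 45 bp. In hypoxia 1 the region fell into 3 intervals with 8 summits in all, of which those at 6642727, 6643222 and 6643541 lay within 26 bp of a hypoxia 2 summit. The order of heights, tallest at the third position and next at the first, was shared by hypoxia 2 and hypoxia 3, while in hypoxia 1 the first position had 14 reads and the third 33.

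The fifth region, chromosome 3: 81809952 to 81811114, had 2 well separated strong summits. Hypoxia 3 placed them at 81810249 (114 reads, fold 54.1) and 81810884 (73 reads, fold 22.8). Hypoxia 2 placed them at 81810232 (117 reads, fold 45.3) and 81810918 (65 reads, fold 29.9), with a smaller summit of 28 reads between them. Hypoxia 1 had 2 separate intervals here, one with 3 summits around the left position and one with 2 summits around the right, each of 14 to 24 reads. This was 1 of 3 regions of the 22 at which the 2 best summits of hypoxia 2 and hypoxia 3 had a summit within 50 bp in every list; the others were the chromosome 12 region and chromosome 3: 119813180 to 119813828.

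On chromosome 5, from 172755347 to 172757141, a dominant summit was flanked on both sides. Hypoxia 2 had summits at 172755708, 172756548 and 172756910 in 1 interval, with 15, 81 and 19 reads. Hypoxia 3 had them at 172755656, 172756546 and 172756915, with 17, 99 and 32 reads, but as 2 intervals, so that only the right pair made a member there. Hypoxia 1 listed 3 summits around the dominant one, at 172756416, 172756499 and 172756621, with 12, 12 and 16 reads, and listed neither flank.

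The twelfth region, chromosome 11: 695032 to 695869, had summits of similar height. Its summits in hypoxia 2, at 695287 and 695704, had 23 and 27 reads, and those in hypoxia 3, at 695249 and 695687, had 40 and 51 reads. Hypoxia 1 had 5 summits in 1 interval, at 695202, 695365, 695559, 695645 and 695801, with 26, 23, 22, 22 and 14 reads. The left part was the higher one in hypoxia 1 and the right part the higher one in hypoxia 2 and hypoxia 3. Normoxia called this region in all 3 libraries, with several summits in 2 of them.

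**Figure D5:**
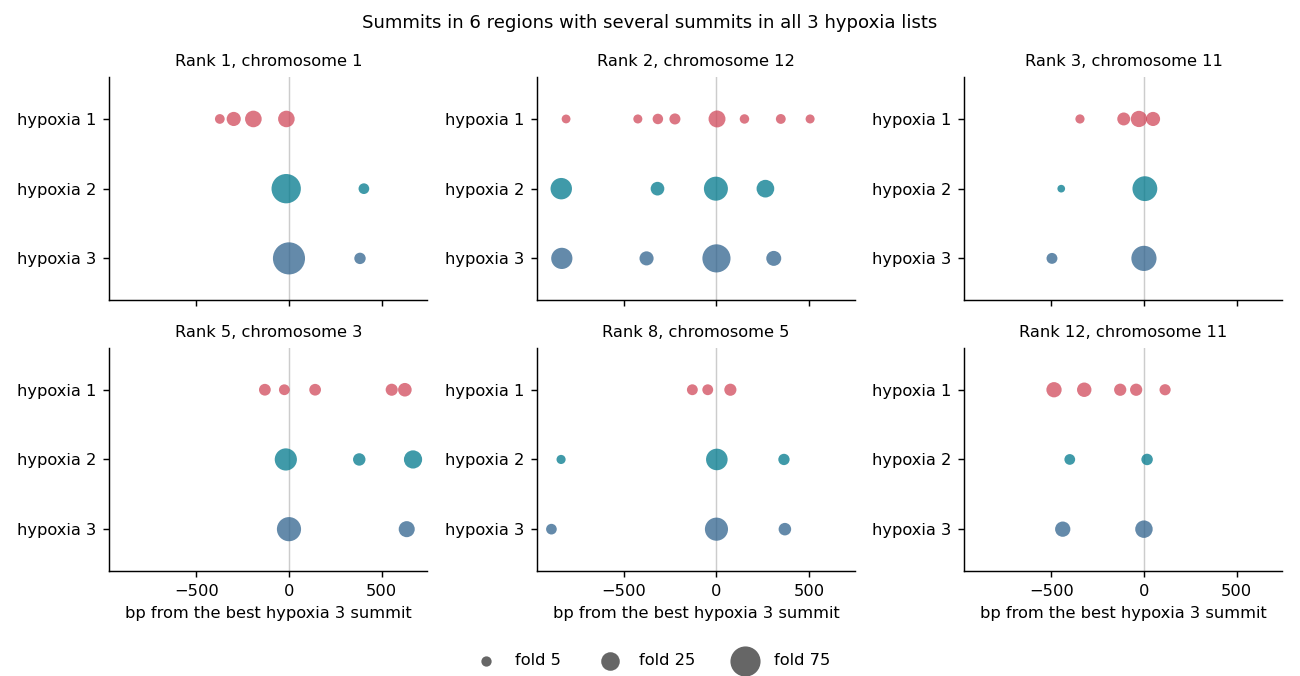
Summit positions (x axis, bp from the best hypoxia 3 summit) in the 3 hypoxia lists (rows) for 6 regions with several summits in every list; the area of a point grows with the fold of the summit. Hypoxia 2 and hypoxia 3 place their summits at like positions, and hypoxia 1 has more and closer summits in the regions on chromosomes 1, 12, 3 and 11 (both panels), and none at the outer summits on chromosome 5.

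The other regions among the first 12 mostly paired a strong summit with a weak one in hypoxia 2 and hypoxia 3. At chromosome 11: 1976385 to 1977487 the best folds were 57.2 and 58.9 and the second folds 3.79 and 9.54 in these lists, with distances of 451 and 496 bp. At chromosome 10: 73271870 to 73273081 the best folds were 67.2 and 68.9 and the second 8.85 and 7.95, at 536 and 587 bp. At chromosome 6: 43736597 to 43737822 they were 37.2 and 33.6 and 9.81 and 12, at 384 and 410 bp. Chromosome 16: 71517622 to 71518726 and chromosome 1: 202779760 to 202781000 followed the same form with best folds of 38.3 and 21.8 and of 53.2 and 38.5. At chromosome 3: 122101942 to 122103281 hypoxia 2 split what hypoxia 3 listed as 1 interval, and the best folds were 60.8 and 67. More balanced was chromosome 8: 10634793 to 10635584, with folds of 35.6 and 18.7 in hypoxia 2 and 25.6 and 20 in hypoxia 3, at 301 and 334 bp.

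The 3 members with the most summits in each list, with ties going to the higher fold, included 1 place in all 3 lists. It lay in the first kilobases of chromosome 5, with 7 summits in hypoxia 1 (10661 to 11448), 7 in hypoxia 2 (10003 to 11803) and 4 in hypoxia 3 (9965 to 11819). Its folds were low, between 2.28 and 4.54, and its local background was 27.2 to 49 times the genome-wide value. It was also the only region of the 22 with a local background of at least 10 times that value, and it was called in all 3 normoxia lists. The others of these 3 per list had folds of 4.79 or more and a background of at most 5.3 times the genome-wide value. They were the chromosome 12 region, with 6 summits in its main hypoxia 1 interval and 4 in hypoxia 2 and hypoxia 3; chromosome 16: 20013292 to 20014076 with 5 in hypoxia 1; chromosome 1: 234859323 to 234860345 with 4 in hypoxia 2; and chromosome 2: 173420376 to 173421444 with 4 in hypoxia 3. The tie rule left out 6 members of hypoxia 1 with 5 summits, whose best folds lay between 12.7 and 28.1, and 1 member of hypoxia 3 with 4 summits. The latter, chromosome 1: 121484421 to 121485291, had folds of 1.3 to 1.33 over a background of 178 to 282 times the genome-wide value, with 209 to 327 reads, and no call in another hypoxia list or in normoxia; it is named after its values were seen. A local background of at least 10 times the genome-wide value was found at 6 of 323 members of hypoxia 1 (1.86%), 1 of 245 of hypoxia 2 (0.408%) and 4 of 305 of hypoxia 3 (1.31%). These include 3, 1 and 1 intervals at the start of chromosome 5. Among single summits the shares were 6.55%, 0.126% and 0.194%, so that members had the lower share in hypoxia 1 and the higher in hypoxia 2 and hypoxia 3, untested.

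A normoxia call was more frequent at members than at single summits. Normoxia lists overlapped 63 of 323 members of hypoxia 1 (19.5%, exact 95% interval 15.3% to 24.3%) beside 7.18% of all its intervals. They overlapped 16 of 245 members of hypoxia 2 (6.53%, 3.78% to 10.4%) beside 1.50%, and 20 of 305 of hypoxia 3 (6.56%, 4.05% to 9.95%) beside 1.29%. Single summits had a normoxia call in 3.46%, 1.28% and 1.07%. The difference was 16, 5.25 and 5.49 percentage points, positive in all 3 libraries, with a mean of 8.93 ± 6.16 (SD, n = 3; exact sign-flip permutation p = 0.25, the smallest possible). It was 4.59 without normoxia 3 and 5.37 without hypoxia 1. In classes of like width, an alternative chosen after the values were seen, the mean was −0.287 (SD 3.3, n = 3; exact sign-flip permutation p = 1). The lists ran from −2.2 to 3.52. Classes with under 20 members or 20 single summits were left out, among them the 2 widest of hypoxia 1. There 16% and 42% of members had a normoxia call, against 7.14% and 14.3% of only 14 and 7 single summits.

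Normoxia lists had members of their own, in small number: 5 of 70 intervals in normoxia 1, 9 of 32 in normoxia 2 and 27 of 108 in normoxia 3. Hypoxia 1 also had several summits at 4 of the 5, 8 of the 9 and 24 of the 27. Hypoxia 2 had them at 2, 3 and 11, and hypoxia 3 at 0, 3 and 10. Among all hypoxia intervals with a normoxia call, members were 63 of 100 in hypoxia 1, 16 of 87 in hypoxia 2 and 20 of 97 in hypoxia 3. Of the 11, 21 and 74 summits of the normoxia members, 72.7%, 71.4% and 60.8% had a hypoxia 1 summit within 50 bp. Every summit came back there in 2, 3 and 7 normoxia members. In hypoxia 2 the matched summits were 36.4%, 47.6% and 40.5%, and in hypoxia 3 they were 27.3%, 47.6% and 43.2%. Every summit came back in 0, 0 and 0 of these members in either list. In each of the 3 normoxia lists the matched share was higher in hypoxia 1 than in hypoxia 2 or hypoxia 3. The difference was not tested, and the closer summits of hypoxia 1 make a match within 50 bp easier. Taken from the side of hypoxia, 60 members of hypoxia 1 had a call in normoxia 3, 24 of them with several summits there and 5 with every summit in place.

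Every chromosome from 1 to 22 and X had members in at least 1 list. In hypoxia 1 the share with several summits was highest on chromosome 11, 30 of 96 intervals (31.2%), and on chromosome 3, 14 of 49 (28.6%). On chromosome 18 it was 0 of 8 in hypoxia 1, 0 of 35 in hypoxia 2 and 1 of 45 in hypoxia 3. Chromosome 19 had 22.2%, 5.34% and 6.5% in hypoxia 1, 2 and 3, and chromosome 17 had 23.7%, 6.44% and 4.91%. The order differed between lists: on chromosome 8 the share was 26.5% in hypoxia 1 but 1.21% in hypoxia 3. Several of these shares rest on fewer than 10 members, and none was tested.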

How the data were processed

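HIF-1α was mapped by chromatin immunoprecipitation sequencing in 6 libraries, each with 1 deposited peak list. The submitters' processing notes name hg19, the aligner BWA 0.7.17 and the peak caller MACS2, whose version and settings were not given in the sources used. In the deposited narrowPeak lists the authors' fold is the ratio of summit reads to local background (1 added to each), p and q are −log10 p-values and q-values, the score is 10 times −log10 q in whole numbers, and the other value used is the summit position. Depth is not listed, so whole reads and local background were recovered from fold and p; all 16463 summit lines gave whole reads within 0.001 of the −log10 p (100%).

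Lines with the same chromosome, start and end were joined into intervals. The best summit had the smallest p. Overlap meant at least 1 bp, and a summit recurred if another list had one within 50 bp, matched one to one where every summit was asked for. Shares have exact Clopper-Pearson 95% intervals for counting error; reads without molecular identifiers are not independent molecules. Per-library differences were tested by two-sided exact sign-flip permutation. These differences are not independent, since the hypoxia lists were matched against each other or against the same normoxia lists. Matching code was tested on simulated data. Tools were Python 3.11.15, numpy 2.4.6, pandas 2.3.3 and scipy 1.17.1. Named regions are the 3 intervals with most summits per list (ties to the higher fold), the closest and widest pairs, and the first 12 regions with several summits in all 3 hypoxia lists by mean fold percentile. Members, rules and lists were chosen with earlier results of these data known. Promoter, gene list, motif and sequence analyses were not run, since no hg19 genome or annotation was used here.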

Additional observations from a re-analysis of the deposited data

Results flagged for a closer look

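Intervals with several summits also occurred outside the chromosomes and window described, where the normoxia lists had 0. On chromosome 2 from 16 to 17 Mb, hypoxia 2 had 8 among 37 intervals and hypoxia 3 had 20 among 77, with median folds of the best summit of 1.97 and 1.63. Hypoxia 1 had 0 intervals there. On other contigs and the Y chromosome, hypoxia 1, 2 and 3 had 4 among 72, 7 among 34 and 7 among 61 intervals. The normoxia lists had 10, 0 and 1 intervals on these contigs and 0, 0 and 1 in the chromosome 2 window, so few could have had several summits. No library was tested as an outlier within its group, since each group holds 3.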

How the results depend on the processing

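Of 47 alternatives to 7 results, 2 turned the direction of a mean and 2 moved a value beyond the spread between libraries. In 4 classes of like width the mean lead of members over single summits in recurrence became −1.69 percentage points and that in normoxia calls −0.287. The lists ran from −4.42 to 0.93 and from −2.2 to 3.52, so not every list turned. Single summits of the same width class had higher folds in hypoxia 2 and hypoxia 3, and the cause was not tested. The share of members whose every summit recurs lay between 1.38% and 18.7% with 1 hypoxia library left out, lowest without hypoxia 3. The other alternatives to results with a sign-flip test kept direction. Those to descriptive results have no direction, and they moved the mean by less than the SD between libraries. That SD was large: for the share with several summits it was 11, and 0.127 without hypoxia 1. The mean share still ran from 4.14% to 19.1%, and the mean of the median distances from 177.5 to 264 bp. For sign-flip tests p cannot fall below 0.25 with 3 libraries or 0.5 with 2, so these p-values say nothing of stability. The 4 alternatives on local background and on normoxia calls by width were chosen after seeing the data. The promoter and motif alternatives were not run for want of an hg19 genome and annotation. Between same-numbered normoxia and hypoxia libraries no paired analysis was possible because every test compares 2 classes of interval or summit within a hypoxia list. The sign-flip tests are paired within libraries, since each takes the difference between the 2 classes in every hypoxia list. No test sets same-numbered normoxia and hypoxia libraries against each other. A median of 12 to 14 reads behind companion summits limits the precision of any 1 position.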
